A study of Mus with 2 samples.

Results

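NF-kB subunits and their inhibitors were followed through single-cell transcriptomes of the whole mouse kidney, as a set of 10 genes chosen by name: the subunit genes Nfkb1, Nfkb2, Rel, Rela and Relb, and the inhibitor or regulator genes Nfkbia, Nfkbiz, Nfkbid, Bcl3 and Tnfaip3. Of these 10 genes, 9 were listed in the authors' deposited table, in 17 entries of a gene in a cluster, out of 8191 genes and 20111 entries in all. The libraries came from senescent and from young C57BL/6 mice, 1 droplet library per group, with 4408 cells stated for the senescent and 10895 for the young mice. No genotype beyond the strain and no treatment is labelled for the samples. The authors' name for the contrast includes the terms C57 and WT and does not say which group is young or senescent. The sources used here do not give the ages, the sex or the number of mice behind each library. The authors set the libraries against each other within 7 clusters. Their names for them are kept and are read here as proximal tubule (PT), loop of Henle (LOH), endothelial (endo), macrophage (Marco), T cell (T), B cell (B) and neutrophil (Neutro) clusters, since the labels do not spell them out.

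NF-kB is a family of dimeric transcription factors that waits in the cytoplasm bound to inhibitor proteins. Ligands such as tumour necrosis factor and interleukin-1 lead to phosphorylation and destruction of the inhibitor, and the freed dimer enters the nucleus and switches on inflammatory genes. Several inhibitors, among them the products of Nfkbia and Tnfaip3, are themselves targets of the factor and so close a negative feedback loop. In the kidney the pathway is known from injured tubule cells and from resident and infiltrating leukocytes.

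Each value below is the authors' mean of scaled expression over the cells of 1 cluster in 1 library, in units whose scale factor is not stated. There is no SD and no test between the groups, because each group had 1 library. The table holds no entry whose deposited p-value, taken here to compare cells, reaches 0.05. It also holds none whose deposited log2 fold change is smaller in size than 0.36. A gene that is not listed therefore cannot be called unchanged. For the same reason the listed members are a selected part of the 10, and their direction carries no support for the set as a whole. An entry is described as past 2-fold where the ratio of the senescent to the young mean was at least 2, or at most 0.5, and the higher mean was at least 0.1. The sources used here give neither sequencing depth nor cells per cluster, so the smallest young mean above 0 in a cluster serves as a guide to how low a mean could be resolved.

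Every listed member had a higher mean in the senescent library. The 17 entries comprised 8 in Marco, 2 each in PT, LOH, endo and T, and 1 in B, and none in Neutro. All 17 were past 2-fold. The 16 ratios that could be formed ran from 3.16 for Rel in Marco to 62.9 for Nfkbiz in PT, with a median of 5.07. The remaining entry, Bcl3 in endo, was listed at 0 in the young library. Higher genes past 2-fold were common in these clusters: they made up 57.2% of all listed genes in PT, 27.5% in LOH, 41.4% in endo, 47.6% in Marco, 25.9% in T and 16.3% in B. Against that background the 2 of 2 listed members in PT, LOH, endo and T and the 1 of 1 in B are too few to set the members apart.

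**Figure D1:**
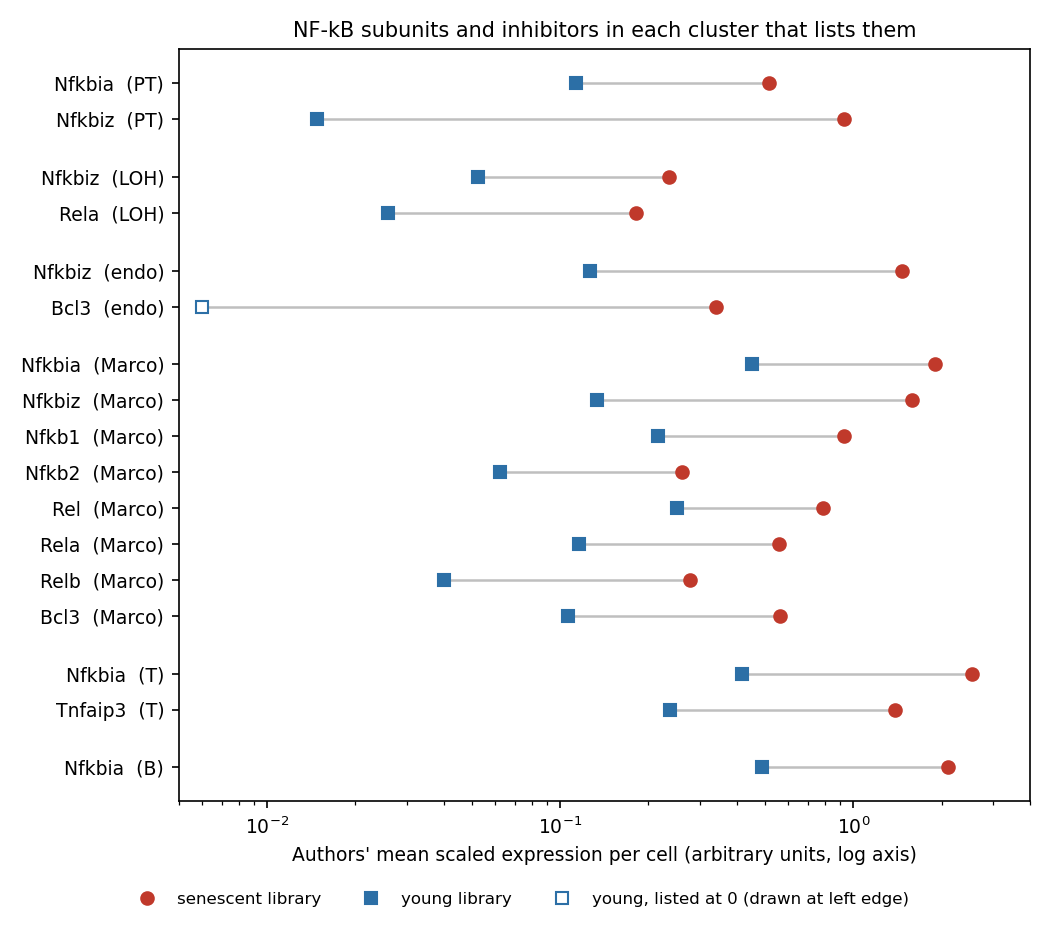
Mean scaled expression per cell of the listed members (log axis, arbitrary units), with 1 row per gene and cluster, the senescent library as circles and the young library as squares, and 1 library per group. The senescent circle lies to the right of the young square in all 17 rows, and Bcl3 in endo has an open square because its young mean is listed at 0.

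All 5 subunit genes were listed in Marco, the macrophage cluster, and each had a higher mean in the senescent library. Rela, which encodes the main transactivating subunit of the classical pathway, had a mean of 0.558 in the senescent and 0.116 in the young library, a 4.83-fold difference. Nfkb1, whose product is processed into the DNA-binding partner of Rela, had means of 0.927 in senescent and 0.216 in young cells, a ratio of 4.29. The subunits of the classical pathway thus differed by similar ratios in this cluster. Rel, encoding the subunit best known from lymphoid and myeloid cells, had means of 0.790 in senescent and 0.250 in young cells, and its ratio of 3.16 was the smallest of the 16.

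The pair of the non-canonical pathway differed in the same direction. Nfkb2, encoding the precursor that restrains Relb until it is processed, had means of 0.261 in the senescent and 0.0625 in the young library, a ratio of 4.17. Relb had means of 0.277 in the senescent and 0.0403 in the young library, a ratio of 6.88, the largest among the subunits in Marco. The young mean of Relb was only 7.58 times the smallest young mean above 0 listed in that cluster, so its ratio is the least certain of the 5. In the authors' deposited table Nfkb1, Rel and Rela passed the adjusted p of 0.05 in Marco, and Nfkb2 and Relb did not. Of all genes listed in Marco, 22.9% were higher past 2-fold and passed it. The median log2 ratio of the 5 subunits, after adding 0.1 to each mean, was 1.43, beside 0.72 for all genes listed in Marco.

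Outside Marco only 1 subunit entry was listed. Rela in LOH had a mean of 0.182 in senescent and 0.0259 in young cells, a ratio of 7.02. That young mean was 3.18 times the smallest above 0 in LOH, and the entry did not pass the authors' adjusted p in the deposited table. The other 4 subunit genes were not listed in LOH, and none of the 5 was listed in PT, endo, T, B or Neutro.

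Nfkbia, which encodes the classical inhibitor that holds Rela-containing dimers in the cytoplasm, was listed in 4 clusters. In T it had means of 2.54 in the senescent and 0.418 in the young library, a ratio of 6.07. In B it had means of 2.10 in the senescent and 0.490 in the young library, a ratio of 4.28. Among the immune clusters the senescent means of Nfkbia therefore ran in the order T, B and Marco, and the young means in the order B, Marco and T. In Marco the means were 1.90 in the senescent and 0.453 in the young library, a ratio of 4.19. PT had the lowest level in both libraries, with means of 0.517 in the senescent and 0.113 in the young library, yet its ratio of 4.57 was close to those of Marco and B. Whether neighbours in these orders differ beyond the spread between mice cannot be said from 1 library per group. The entries in PT and Marco passed the authors' adjusted p in the deposited table, and those in T and B did not. In PT this says little about the member, because genes higher past 2-fold that also met that threshold in the authors' deposited table made up 57.2% of those listed.

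The genes whose log2 ratios over PT, Marco, T and B were nearest to those of Nfkbia were found among 1324 genes listed in all 4 clusters with a higher mean of at least 0.1. They were H2-K1, an MHC class I heavy chain gene, then Tpm4, encoding a tropomyosin, Rbm3, encoding a cold-inducible RNA-binding protein, Limd1 and Hnrnpd. Their mean absolute differences from Nfkbia were 0.19, 0.25, 0.26, 0.30 and 0.31 on the log2 scale. H2-K1 was 2.99-fold higher in PT, 3.87-fold in Marco, 3.70-fold in T and 3.39-fold in B. The likeness is a description over 4 clusters of the same pair of libraries.

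Nfkbiz encodes an inducible nuclear member of the inhibitor family that helps NF-kB to activate secondary response genes. It too was listed in 4 clusters, PT, LOH, endo and Marco. In PT its mean was 0.932 in the senescent and 0.0148 in the young library, a 62.9-fold difference. Only 0.556% of the 5037 genes listed in PT had a larger log2 ratio, and its young mean was 58.6 times the smallest above 0 there. The young level of Nfkbiz in PT was thus the lowest of its 4 clusters, whereas its senescent level was above that in LOH. In Marco its means were 1.59 in senescent and 0.134 in young cells, an 11.9-fold difference, and in endo they were 1.47 in senescent and 0.126 in young cells, an 11.7-fold difference. The values in Marco and endo nearly coincided in both libraries. In LOH the means were lower, 0.236 in the senescent and 0.0524 in the young library, a ratio of 4.50. Nfkbiz passed the authors' adjusted p in PT and Marco in the deposited table, but not in endo or LOH, where its young mean was 3.45 and 6.42 times the smallest above 0.

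Bcl3, a nuclear regulator that binds homodimers of the DNA-binding subunits, had means of 0.563 in the senescent and 0.106 in the young library in Marco, a ratio of 5.30, and passed the authors' adjusted p in the deposited table. In endo it was listed at 0.339 in the senescent library and at 0 in the young library. No fold is given there, since 169 of the 1028 genes listed in endo were at 0 in the young library and the smallest young mean above 0 was 0.0365.

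Tnfaip3 encodes a ubiquitin-editing enzyme that shuts off signalling upstream of the inhibitor kinase. It was listed in T only, with a mean of 1.39 in the senescent and 0.237 in the young library, a ratio of 5.86, and did not pass the authors' adjusted p in the deposited table. In T the ratios of Tnfaip3 and Nfkbia lay close together, and 4.49% and 2.75% of the 4368 listed genes had larger log2 ratios. Nfkbid, encoding a further nuclear inhibitor, was listed in no cluster. In all, 53 of the 70 possible entries of a member in a cluster were not listed.

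**Figure D2:**
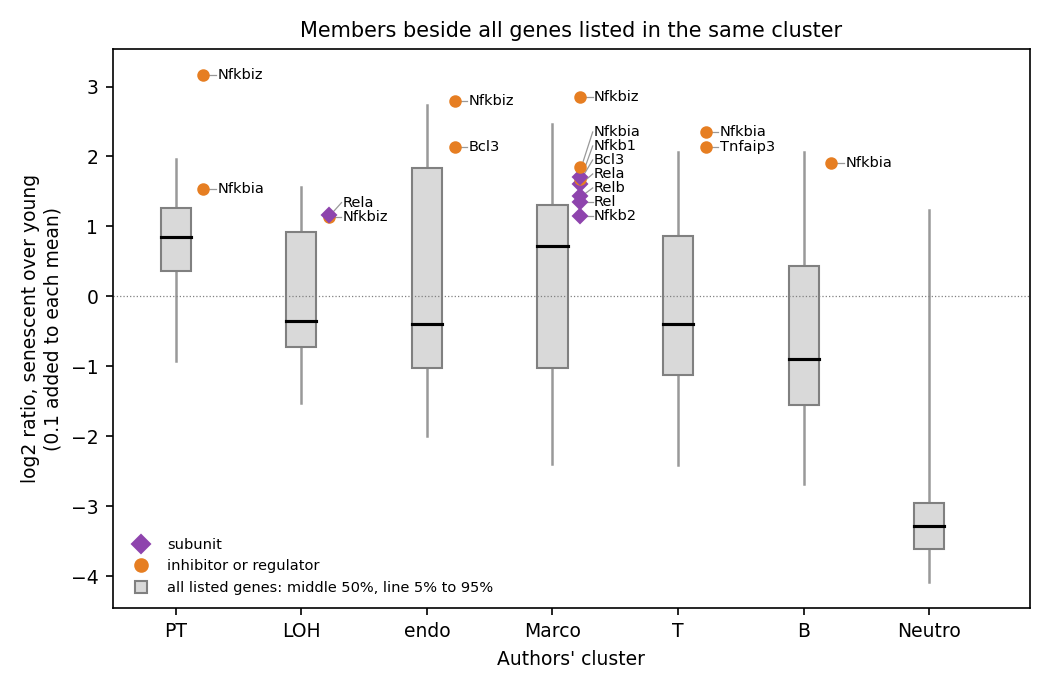
Log2 ratio of the senescent over the young mean, with 0.1 added to each, by cluster. Grey boxes hold the middle 50% of all genes listed in that cluster with their median as a bar and the line running from 5% to 95%, and coloured points are the listed members. Nfkbiz in PT, endo and Marco and both members in T lie above the 95% end of their lines, whereas the subunits in Marco lie within the line.

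The ratios in Marco have to be read beside those of the cluster's own genes. All 13 macrophage and monocyte markers had the higher mean in senescent cells. The median of their ratios was 7.80, and their summed level was 417 in the senescent and 50.2 in the young library. Of the proximal tubule markers, 17 of 18 were listed in Marco and each was lower, at a summed level of 28.6 in the senescent and 839 in the young library, of which Kap alone made up 2.24 and 642. After division by the median ratio of the macrophage markers, 7 of the 8 members in Marco came out below 1, from 0.405 for Rel to 0.882 for Relb, and only Nfkbiz came out above it, at 1.52. In Marco the subunit genes were thus higher in the senescent library by their means, but lower relative to the median marker of the cluster. Unlike the proximal tubule markers, the neutrophil markers listed in Marco, 4 of 8, were all higher. Their summed level was 7.06 in the senescent and 0.0802 in the young library. S100a8 was listed at 4.34 in the senescent library and at 0 in the young library. The immunoglobulin light chain gene Igkc had means of 1.99 in the senescent and 0.188 in the young library. The part of tubule, neutrophil and B cell transcripts in the ratios of the members, and of the ligands, receptors and targets listed in Marco, was not tested.

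**Figure D3:**
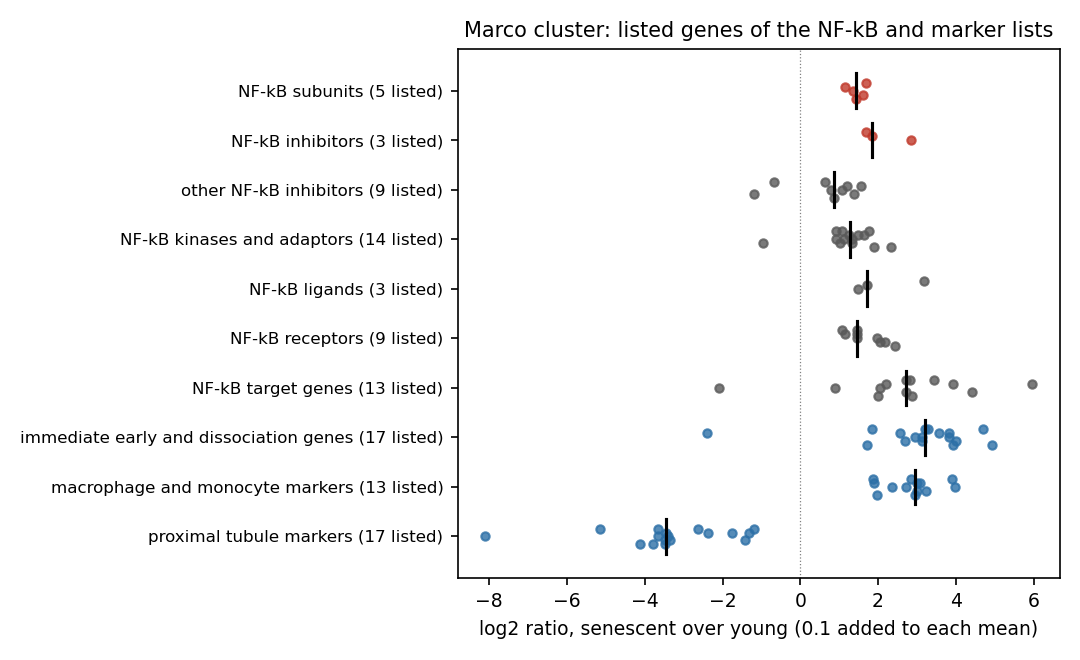
Log2 ratio of the senescent over the young mean in Marco, with 0.1 added to each, for every listed gene of each list (points) with the list median (bar). The subunits, with a median of 1.43, lie below the macrophage markers, with a median of 2.94, and the proximal tubule markers lie on the other side of 0, at a median of -3.46.

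In PT, LOH, T and B the members' ratios exceeded the median ratio of the cluster's own markers. In T and B they did not exceed every marker. The 11 T cell markers in T had a median ratio of 3.58, and Nfkbia and Tnfaip3 divided by it came to 1.70 and 1.64, while the ratio of Cd4 itself was 8.87. The 7 listed B cell markers in B had a median ratio of 2.37, and Nfkbia divided by it came to 1.81, while the ratio of Cd22 was 4.67. Proximal tubule markers were likewise lower in T, at a summed level of 27.4 in the senescent and 673 in the young library, and in B, at 29.2 in the senescent and 686 in the young library. The 2 macrophage, 1 neutrophil and 1 B cell markers listed in T were all higher. Among them, Igkc had means of 7.77 in the senescent and 0.610 in the young library, and Apoe 3.26 and 0.221. In B the 1 macrophage and 2 neutrophil markers listed were higher. The part of such transcripts in the members' ratios in T and B was not tested. In PT the 16 listed tubule markers had a median ratio of 1.49, which left 3.06 for Nfkbia and 42.1 for Nfkbiz. Only 3 markers of the thick ascending limb were listed in LOH, with a median ratio of 1.48, which left 3.04 for Nfkbiz and 4.74 for Rela. Each of the 16 proximal tubule markers listed in LOH was lower, 14 of them past 2-fold, at a summed level of 21.4 in the senescent and 282 in the young library. Of 11 endothelial markers 0 were listed in endo, so neither the cluster's name nor such a ratio could be checked there.

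Leukocyte markers also moved in the non-immune clusters where Nfkbiz was listed. In PT, 4 of 13 macrophage and monocyte markers were listed, at a summed level of 13.3 in the senescent and 1.69 in the young library. Apoe accounted for 12.4 and 0.776 of these, whereas Lyz2 and Tyrobp were lower in the senescent library and C1qa, C1qb and C1qc were not listed. S100a8 and S100a9, the 2 neutrophil markers listed in PT, summed to 2.05 in the senescent and 0.629 in the young library. In LOH, 5 of 13 were listed and all were higher, summing to 9.71 in the senescent and 1.26 in the young library, and the neutrophil markers S100a8 and S100a9 summed to 5.42 in the senescent and 0.0575 in the young library. In endo the 3 listed macrophage markers summed to 12.5 in the senescent and 3.95 in the young library, and S100a8 and S100a9 were listed at 0 in the young library. The part of such transcripts in the Nfkbiz, Rela and Bcl3 values of these clusters was not tested.

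Immediate early and dissociation genes, known to be induced by enzymatic digestion and by stress, were mostly higher in the same 6 clusters. In PT 13 of 18 were listed, 11 of them higher, beside 78.4% of all genes listed there. The median of their log2 ratios was 2.68. Medians were 2.37 in LOH, 3.07 in endo, 3.22 in Marco, 2.47 in T and 1.72 in B, against medians of all listed genes from -0.89 in B to 0.85 in PT. Fos in Marco, for example, had means of 31.8 in the senescent and 0.941 in the young library. The heat-shock genes of that list went the other way wherever they were listed. Hspa1b was lower in PT, endo, Marco, T and B, with means in Marco of 0.137 in the senescent and 1.15 in the young library, and Hspa1a was lower in PT and T. Of the 17 member entries, only Nfkbiz in PT, at a log2 ratio of 3.17, and Nfkbia in B, at 1.90, exceeded the median of that list in their cluster. The list holds no NF-kB member, and its part in the values of Nfkbia, Nfkbiz and Tnfaip3, which are also rapidly inducible, was not tested.

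Ligand genes of the pathway were listed in the immune clusters only. In Marco all 3 listed ligands of 9 were higher past 2-fold, beside 47.6% of all genes listed there. Il1b, encoding interleukin-1 beta, had means of 13.0 in the senescent and 1.34 in the young library, a ratio of 9.71. Tnf, encoding tumour necrosis factor, had means of 0.331 in the senescent and 0.0310 in the young library, and Tnfsf13b, encoding a B cell survival factor, 0.370 in the senescent and 0.0669 in the young library. Of the 3, only Il1b passed the authors' adjusted p in the deposited table. In T, the CD40 ligand gene Cd40lg had means of 1.14 in the senescent and 0.116 in the young library, and the lymphotoxin gene Ltb 7.85 in the senescent and 2.47 in the young library.

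Receptor genes were listed chiefly in Marco, where 9 of 16 were listed. All 9 were higher past 2-fold, with 5 past the authors' adjusted p in the deposited table. Of all genes listed in Marco, 47.6% were higher past 2-fold and 22.9% also passed that adjusted p. The median log2 ratio of the 9 receptor genes, 1.47, was close to that of the subunits. Tlr2, a sensor of bacterial lipoproteins, had means of 0.708 in the senescent and 0.0502 in the young library, and its partner Tlr1 0.361 in the senescent and 0.0110 in the young library. The tumour necrosis factor receptor genes Tnfrsf1a and Tnfrsf1b were 5.32-fold and 6.36-fold higher. In T, Tnfrsf1b and the interleukin-18 receptor gene Il18r1 were listed at 0.468 and 1.42 in the senescent library and at 0 in the young library, whereas the lymphotoxin beta receptor gene Ltbr was lower, at 0.0280 in the senescent and 0.205 in the young library. In PT, Tnfrsf1a had means of 0.319 in senescent and 0.110 in young cells. In B both listed receptors were lower past 2-fold, as were 54.0% of all genes listed there, and Ltbr was listed at 0 in the senescent and 0.162 in the young library.

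Of 30 genes for kinases and adaptors between receptor and inhibitor, 14 were listed in Marco, 13 higher and 1 lower. Among all genes listed in Marco 58.3% were higher. The adaptor gene Myd88, used by Toll-like and interleukin-1 receptors, had means of 1.02 in the senescent and 0.123 in the young library, a ratio of 8.29. Ikbkb, encoding the kinase that marks the product of Nfkbia for destruction, had means of 1.22 in the senescent and 0.253 in the young library. Its partner kinase gene Chuk was the 1 lower gene, with 0.288 in the senescent and 0.657 in the young library. The kinase partners thus differed in opposite directions in Marco. In PT all 11 listed genes were higher and 10 were past 2-fold, beside 78.4% and 57.2% of all genes listed there. There Ikbkb was 3.84-fold and Chuk 2.19-fold higher, Tab2 had means of 0.974 in the senescent and 0.164 in the young library, and the ubiquitin ligase gene Birc2 0.722 in the senescent and 0.0851 in the young library. In endo, Birc2 had means of 2.63 in the senescent and 0.0947 in the young library, without passing the authors' adjusted p in the deposited table. In T, Malt1, a protease of antigen receptor signalling, had means of 0.952 in the senescent and 0.155 in the young library.

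Other inhibitors of the pathway were mixed. In PT 6 of 7 listed genes were higher and 5 were past 2-fold, close to the shares of all genes listed there, among them Itch at 1.31 in the senescent and 0.267 in the young library, and the deubiquitinase gene Cyld at 0.393 in the senescent and 0.112 in the young library. In Marco 7 of 9 were higher, beside 58.3% of all genes listed there. The median log2 ratio of the 9 was 0.86, near the 0.72 of all genes listed in Marco. Zc3h12a, encoding a ribonuclease that degrades inflammatory transcripts, had means of 0.234 in the senescent and 0.0294 in the young library, whereas Nkiras1 had means of 0.0904 in the senescent and 0.338 in the young library. In T, Tnip1, which encodes a binding partner of the Tnfaip3 product, had means of 0.512 in the senescent and 0.0220 in the young library, a ratio of 23.3 on a young mean close to the smallest above 0 there, 0.0172. In B, Commd1 was lower, at 0.334 in the senescent and 1.42 in the young library.

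Known target genes of NF-kB showed the largest median among the pathway lists in Marco, 2.73 on the log2 scale. There 12 of 13 listed genes were higher, and 11 of the 12 also passed the authors' adjusted p in the deposited table. Among all genes listed in Marco, 58.3% were higher, and 22.9% were higher past 2-fold and passed it. The chemokine gene Ccl2 had means of 3.04 in the senescent and 0.108 in the young library, and Ier3, encoding a survival factor, 3.18 in the senescent and 0.0529 in the young library. That median lay below the 2.94 of the macrophage markers on the same scale. In PT, Cxcl1 had means of 0.644 in the senescent and 0.00565 in the young library, and the adhesion molecule gene Icam1 0.220 in the senescent and 0.0231 in the young library. In LOH the lipocalin gene Lcn2 had means of 3.26 in the senescent and 0.128 in the young library. Sod2, the mitochondrial superoxide dismutase gene, was lower in each of the 6 clusters that listed members, with ratios from 0.196 in T to 0.538 in LOH, and in B it was the only target gene listed. Its means in Marco were 1.34 in the senescent and 6.09 in the young library, and in PT 3.84 in the senescent and 10.1 in the young library.

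**Figure D4:**
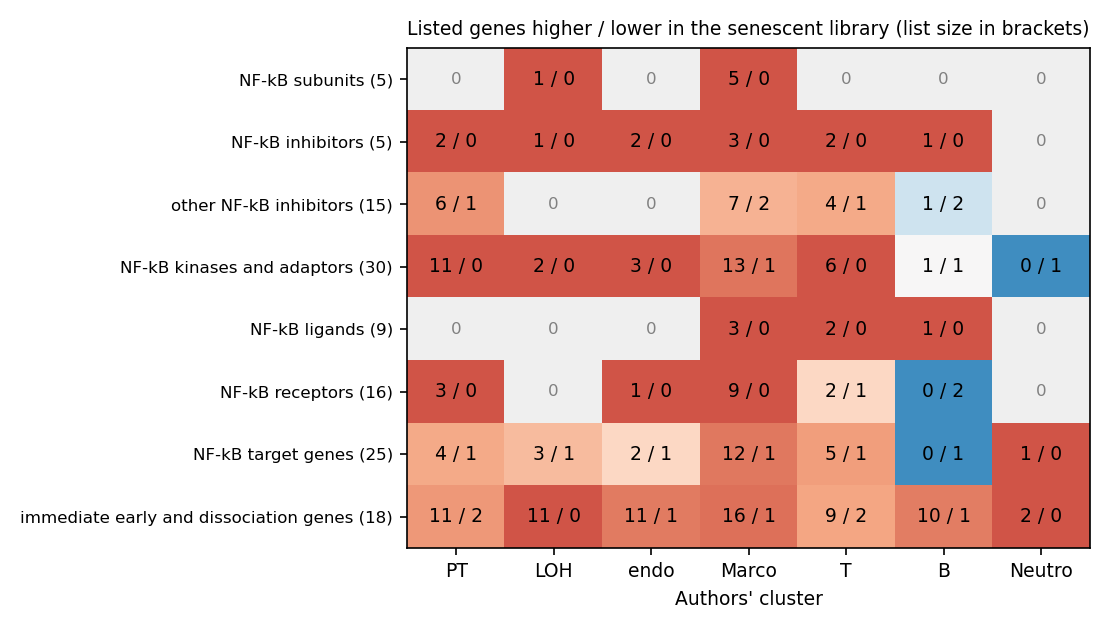
Number of listed genes higher / lower in the senescent library for each list (rows, list size in brackets) and cluster (columns), in which 0 means that no gene was listed. Red cells hold mostly higher and blue cells mostly lower genes, and the subunits are listed in Marco, with 5 higher, and in LOH, with 1 higher.

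The table's own annotation to the KEGG NF-kappa B signaling pathway gave a similar picture over 72 genes. In Marco 44 of 48 listed genes were higher, in PT 29 of 30, in endo 10 of 10, in LOH 9 of 10, in T 22 of 29 and in B 10 of 16, and in Neutro 0 of 3. Among all listed genes the higher share was 58.3% in Marco, 78.4% in PT, 48.2% in endo, 47.8% in LOH, 44.8% in T, 28.2% in B and 6.35% in Neutro. This annotation includes several of the members and the genes named above, so it is not separate evidence.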

How the data were processed

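Droplet single-cell libraries of whole kidney were made after enzymatic digestion, per the labels' protocols. The submitters' processing notes name Cell Ranger 2.1.1 and the build mm10. The sources used here leave unstated how cells were filtered and clustered, how doublets were handled, the scale factor and the authors' test.

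The deposited means per cluster are a signal that the authors averaged over cells, never negative and of unstated scale. Columns were matched to libraries by the labels' descriptions of the samples, on which every direction rests, since the table's contrast name identifies neither group as young or senescent. The authors' deposited log2 fold changes are recovered from the means with 0.0001 added to each, within 0.01, in all entries but 1. The deposited p-value column is taken to compare cells, since each group has 1 library. The adjusted p-values are about 32574 times the p-values where both could be compared.

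Computed here were ratios of the 2 means, log2 ratios with a pseudocount of 0.1, counts past 2-fold with a higher mean of at least 0.1, and list medians over at least 5 genes with a higher mean of at least 0.1. Python 3.11.15, numpy 2.4.6, pandas 2.3.3 and matplotlib 3.10.9 were used. The counting was tested only on simulated data with differences well past the 2-fold threshold and without the filter on the mean. The members and lists were chosen with earlier results of these data known. Named were all members, up to 4 genes per list and cluster with the largest absolute log2 ratio past 2-fold, and the 5 genes most like Nfkbia, which shares the widest listing with Nfkbiz and was taken for its higher mean. Chuk, Sod2, Lyz2, Tyrobp, Hspa1a, Hspa1b and Ltbr and Otud7b in the closing section were picked after their values were seen. A planned search of promoters for the kB motif was not run, since no sequence was used here. Alternatives were other fold and mean thresholds, the authors' adjusted p, other pseudocounts and other scalings of the ratios.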

Additional observations from a re-analysis of the deposited data

Results flagged for a closer look

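Among the 105 genes of the NF-kB lists, of which 73 were listed in a cluster, 4 were higher past 2-fold in 1 cluster and lower past 2-fold in another. The share of such genes among all 8191 listed genes was not computed, so the 4 cannot be called many or few. Among all listed genes, 57.2% in PT were higher past 2-fold, while 31.5% in Marco and 54.0% in B were lower past 2-fold. No member was among the 4, since all 17 member entries were higher. The differences between clusters were not tested, since each group had 1 library.

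Chuk, an inhibitor kinase gene, had means of 0.762 in the senescent and 0.347 in the young library in PT, but 0.288 in the senescent and 0.657 in the young library in Marco, a difference of 1.91 between the log2 ratios. Otud7b, a deubiquitinase gene, had means of 0.351 in the senescent and 0.0994 in the young library in PT, and 0.0407 in the senescent and 0.126 in the young library in Marco, a difference of 1.86. Chuk passed the authors' adjusted p in the deposited table in both clusters, and Otud7b in PT but not in Marco. In PT, 5035 of the 5037 listed genes passed it.

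Ltbr, the lymphotoxin beta receptor gene, had means of 0.404 in the senescent and 0.0834 in the young library in Marco, and was listed at 0 in the senescent and 0.162 in the young library in B, a difference of 2.85. It was also lower in T, at 0.0280 in the senescent and 0.205 in the young library. Tnfrsf12a, the receptor gene for the cytokine TWEAK, had means of 1.26 in the senescent and 0.111 in the young library in endo, and 0.0657 in the senescent and 0.144 in the young library in B, a difference of 3.25. None of these Ltbr and Tnfrsf12a entries passed the authors' adjusted p in the deposited table. Proximal tubule markers were also lower in B, at a summed level of 29.2 in the senescent and 686 in the young library, and in Marco, at 28.6 and 839. Their part in these values was not tested.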

How the results depend on the processing

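Of the 17 member entries higher past 2-fold, 16 remained at 4-fold. All 17 remained at a threshold of 1.5-fold, without a filter on the mean and without Neutro. None of the latter settings could lower the count, since they loosen the call or drop a cluster that lists no member. With a mean of at least 1 required in the higher library the count was 6, and with the authors' adjusted p also required it was 8. Division by the median ratio of all listed genes of the cluster left 15 entries and a median ratio of 4.77, beside 5.07 undivided. Division by the median ratio of the cluster's own markers, possible for 15 entries, left 4 higher and made 1 lower past 2-fold, Rel in Marco, at a median ratio of 1.52. These markers were themselves listed only where they differed. An alternative chosen after seeing the data kept the 12 entries whose young mean was at least 10 times the smallest above 0. All 12 were higher past 2-fold, which was fixed in advance, since all 17 entries were. All 17 list medians lay above those of all listed genes with a pseudocount of 0.1, 1 or 0.01 and without a mean filter. They include those of the immediate early and dissociation genes, which are not an NF-kB list, and that of the subunits in Marco. Leaving out the filter changed none of the list medians. At a pseudocount of 0.1, the only one run for them, 6 of 6 KEGG pathway medians also lay above those of all listed genes. The KEGG list too was chosen after seeing the data. No paired analysis was possible because each group has a single library, and leaving out a replicate was not run for the same reason. Depth per cluster is unknown, and 6 entries had a young mean under 0.1, where the ratio is least certain.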

Other observations

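In the mouse build GRCm38, which mm10 names too, Nfkbia lies on chromosome 12 from 55489409 to 55492647, Nfkbiz on chromosome 16 from 55811375 to 55838954, Nfkb1 on chromosome 3 from 135584655 to 135691969, Rel on chromosome 11 from 23736847 to 23770969 and Tnfaip3 on chromosome 10 from 19000910 to 19015410. Rela, from 5637442 to 5648134, and Nfkb2, from 46300994 to 46312400, are on chromosome 19, and Nfkbid, which no cluster lists, is on chromosome 7 from 30421731 to 30428749. All 10 members matched the RefSeq gene table of this assembly by symbol and are annotated as protein coding. Nfkb1, Nfkb2 and Bcl3 overlap other annotated genes, Psd in the case of Nfkb2. The sources used here do not say how reads in these overlaps were counted, and the effect of the overlaps on the values was not tested.

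Relb, from 19606217 to 19629438, and Bcl3, from 19808462 to 19822824, lie 179023 bases apart on chromosome 7, with 13 annotated genes between them. Of these 13, 2 were listed in Marco. Apoe, the lipoprotein gene, had means of 144 in the senescent and 9.02 in the young library, and Clptm1 had 0.444 in the senescent and 0.774 in the young library. Neighbouring genes thus differed in both directions there. Across the table, 24.0% of the 8191 genes were listed in at least 4 clusters, as Nfkbia and Nfkbiz were.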
